A study of Mus musculus with 99 samples.

Results

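The genes described here mark the early stages of the oligodendrocyte lineage, from the dividing precursor to the newly formed cell that has not yet built myelin. The set is 9 genes chosen by name from general knowledge of the lineage, out of 55335 gene identifiers in each count file, of which 55154 had a symbol in GENCODE M21. They fall into 3 roles: surface proteins of the precursor (Pdgfra and Cspg4), transcription factors of the whole lineage (Olig1, Olig2 and Sox10), and genes of the committed and newly formed cell (Gpr17, Enpp6, Bcas1 and Myrf). All 9 passed the filter on low counts in each fit described below.

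Oligodendrocyte precursors divide throughout the brain, and part of them stop dividing, pass through a short premyelinating stage and then wrap axons. Platelet-derived growth factor drives their division through the receptor Pdgfra, while Olig1, Olig2 and Sox10 stay on from precursor to mature cell, and Myrf switches on the myelin genes once a cell is committed. In rodents myelin forms earlier in brainstem and thalamus than in the frontal cortex.

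Bulk RNA sequencing was done on tissue punches from juvenile offspring of C57BL/6 mice, all labelled wildtype. The mothers drank either plain water or water with fentanyl, an opioid, at 10 µg/ml from embryonic day 0 until weaning. Punches of 5 brain regions were taken from female and male offspring: 2 of cortex, namely prelimbic (PrL) and primary somatosensory (S1), 1 of ventrobasal thalamus (VBT), 1 of nucleus accumbens (NAc) and 1 of ventral tegmental area (VTA). Region, sex and treatment give 20 groups of 5 libraries, except 4 in S1 male water, and the SMART-Seq v4 kit was used on 10 ng of RNA per library. The exposure reached the dams, so the drug dose of each pup is not known, and the labels name no litters. The p-values therefore measure the spread between libraries, some of which may share a mother.

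Of the 99 libraries, 98 were used. They held 23032078 to 52069639 counts assigned to genes (median 36024982), and 24079 to 27347 genes with at least 1 count. The library labelled VTA male water 3 was left out because it had 6333 genes detected, and it also went against its label, with 142 CPM (counts scaled to a common library total) summed over the VTA marker list against 2075 CPM over the VBT list. Elsewhere in VTA these sums were 335 to 1733 CPM and 208 to 655 CPM. The marker list of each region was highest in punches of that region, but some libraries stood apart. VBT male water 3 had 1295 CPM of the VBT list and 714 CPM of the striatum list, VBT female water 2 had 452 CPM of choroid plexus genes, and PrL female water 5 and PrL male water 3 had 201 and 385 CPM of an olfactory bulb list. Among NAc libraries the cortex list ranged from 87.8 to 1426 CPM, and VBT female fentanyl 1 carried counts of Y-linked genes.

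The genes are described with their position on GRCm38. Pdgfra (ENSMUSG00000029231, chr5:75152292-75198215, plus strand) encodes the receptor for platelet-derived growth factor A. Cspg4 (ENSMUSG00000032911, chr9:56865033-56899870, plus strand) encodes the NG2 proteoglycan. Both are also made outside the lineage, Pdgfra by fibroblasts and Cspg4 by pericytes. Olig1 (ENSMUSG00000046160, chr16:91269772-91271933, plus strand) and Olig2 (ENSMUSG00000039830, chr16:91225457-91228677, plus strand) are neighbouring genes for related basic helix-loop-helix factors, and Sox10 (ENSMUSG00000033006, chr15:79154908-79165240, minus strand) encodes an HMG-box factor. Gpr17 (ENSMUSG00000052229) encodes a receptor of committed precursors. Enpp6 (ENSMUSG00000038173, chr8:46986887-47096762, plus strand) encodes a choline phosphodiesterase of newly forming oligodendrocytes. Bcas1 (ENSMUSG00000013523, chr2:170346991-170427845, minus strand) is made by premyelinating and early myelinating cells, and Myrf (ENSMUSG00000036098, chr19:10208272-10240748, minus strand) encodes a membrane-bound transcription factor.

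The share of G and C bases differs among the members, and it is shown here because the VTA libraries differed by it, as given further on. The coding sequences of Olig2 (69.7% G or C) and Olig1 (68.5%) lay at the 99.2 and 98.9 percentiles of 22527 mouse genes, and Sox10 (63.3%) at the 95.5 percentile, with Cspg4 at 59.9%, Myrf at 59.5%, Gpr17 at 57.2% and Bcas1 at 56.0%. Enpp6 (51.7%) and Pdgfra (50.9%) were close to the median gene (51.7%). The 90 bases at the centre of the coding sequences of Olig1, Olig2, Sox10, Cspg4, Enpp6 and Pdgfra in GENCODE M21 are printed 5′ to 3′ with G and C in capitals.
Olig1: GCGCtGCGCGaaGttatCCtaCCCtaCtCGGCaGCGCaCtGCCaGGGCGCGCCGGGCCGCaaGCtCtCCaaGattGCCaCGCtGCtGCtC
Olig2: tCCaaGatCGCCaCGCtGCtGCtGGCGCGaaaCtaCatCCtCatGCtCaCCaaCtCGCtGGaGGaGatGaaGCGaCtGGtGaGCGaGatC
Sox10: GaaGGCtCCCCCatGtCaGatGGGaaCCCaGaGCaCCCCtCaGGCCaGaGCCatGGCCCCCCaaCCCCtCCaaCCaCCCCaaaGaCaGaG
Cspg4: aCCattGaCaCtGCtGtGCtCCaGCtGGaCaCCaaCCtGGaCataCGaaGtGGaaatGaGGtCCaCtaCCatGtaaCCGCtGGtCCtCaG
Enpp6: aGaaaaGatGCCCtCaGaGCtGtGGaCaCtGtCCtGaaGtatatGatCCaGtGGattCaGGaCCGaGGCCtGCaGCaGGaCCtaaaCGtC
Pdgfra: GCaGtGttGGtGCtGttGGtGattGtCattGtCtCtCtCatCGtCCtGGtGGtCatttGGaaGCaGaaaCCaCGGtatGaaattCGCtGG
They cover coding bases 346 to 435 of Olig1, 439 to 528 of Olig2, 655 to 744 of Sox10, 3445 to 3534 of Cspg4, 616 to 705 of Enpp6 and 1588 to 1677 of Pdgfra. G and C made up 67.8% of the stretch of Olig1, 64.4% of Sox10, 57.8% of Olig2, 53.3% of Cspg4, 52.2% of Enpp6 and 48.9% of Pdgfra. That was less than in the whole coding sequence for Olig2, Cspg4, Pdgfra and Olig1 and more for Sox10 and Enpp6. The longest run of bases that the Olig1 and Olig2 coding sequences share was 17. Exons of Pdgfra, Olig1, Gpr17 and Bcas1 overlap another annotated gene (Gm42802, Gm42803 and Mir7025 with Pdgfra, Gm15966 with Olig1, Lims2 with Gpr17, Bcas1os1 and Bcas1os2 with Bcas1). Whether counting used the strand is not given in the sources used here, so reads from these overlaps cannot be told apart.

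The first comparison asked how the 9 genes were distributed over the 5 regions in offspring of water-drinking dams. The precursor surface genes were nearly even, with a largest fold between any 2 regions of 1.29 for Pdgfra and 1.46 for Cspg4. The transcription factors of the whole lineage were much higher in VTA and VBT than in the cortical regions, by up to 5.74-fold for Olig1, 5.28-fold for Olig2 and 7.37-fold for Sox10. The largest folds were 10.8-fold for Enpp6, 15.0-fold for Bcas1 and 15.6-fold for Myrf. Gpr17, the receptor of the committed precursor, lay between, at 2.16-fold. In bulk punches fewer cells of a type and less RNA per cell cannot be told apart.

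Pdgfra was highest in VTA, where the 9 water libraries ran from 77.2 to 102 CPM (median 86.2), and had medians of 68.4 CPM in VBT (58.2 to 90.6), 68.2 in S1 (52.6 to 77.5), 66.9 in NAc (53.6 to 79.7) and 61.8 in PrL (52.6 to 73.8). Libraries of neighbouring regions in this order overlapped widely, and the main edgeR fit of these libraries called no pair of neighbours at an adjusted p under 0.05. Alternative fits called some, with VTA above VBT by limma-voom (log2 0.22, adjusted p = 0.0013). VBT was above S1 by edgeR with offsets for exon length (0.28, adjusted p = 0.00034). The same held with the share of reads outside exons as covariate (0.31, adjusted p = 0.018). Cspg4 fell into 2 levels, with medians of 36.9 CPM in VTA (32.9 to 41.7) and 33.6 in VBT (28.7 to 38.1), against 25.4 in NAc (21.5 to 29.3), 26.3 in S1 (18 to 32.9) and 23.6 in PrL (21.2 to 30.2). Of its neighbours only VBT and NAc differed, by 0.53 on the log2 scale (adjusted p = 1.21e-08, edgeR quasi-likelihood test).

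Sox10 showed the steeper pattern of the transcription factors, with medians of 107 CPM in VBT (77.5 to 187), 97.7 in VTA (60.9 to 121), 36.8 in NAc (28.9 to 42.7), 20.7 in S1 (18 to 29.1) and 15.8 in PrL (11.1 to 23.7). No library of VTA or VBT came as low as any library of the other 3 regions. Olig1 had medians of 254, 221, 92.8, 63.3 and 46.4 CPM in VBT, VTA, NAc, S1 and PrL, and Olig2 had 72.6, 66.0, 29.1, 20.2 and 14.7 CPM. For all 3 factors each region differed from the next in that order by edgeR. Sox10 lost its call between S1 and PrL with the share of reads outside exons as covariate (log2 0.38, adjusted p = 0.0655). It also lost it in females alone (0.48, adjusted p = 0.0862) and in males alone (0.36, adjusted p = 0.125).

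Myrf, the factor that turns on myelin genes, had medians of 203 CPM in VBT (142 to 320), 182 in VTA (125 to 227), 54.9 in NAc (42.2 to 72.3), 28.3 in S1 (26.3 to 46.1) and 11.9 in PrL (8.45 to 23.9). Bcas1 had medians of 502 CPM in VBT (395 to 829), 370 in VTA (273 to 554), 123 in NAc (94.1 to 156), 79.6 in S1 (69.6 to 128) and 32.3 in PrL (22.3 to 58.5). Both genes kept the order of the transcription factors, with each neighbour different. Enpp6 ran from a median of 53.1 CPM in VBT (28.3 to 107) and 48.8 in VTA (43.9 to 67.3) to 4.45 in PrL (2.96 to 9.67), with 18.7 in NAc and 11.6 in S1, and VBT and VTA did not differ beyond their spread (log2 0.22, adjusted p = 0.333). Gpr17 ran from 136 CPM in VBT (91.9 to 205) to 66.6 in PrL (52.0 to 85.6), and its NAc and S1 levels did not differ beyond their spread (log2 0.11, adjusted p = 0.362).

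**Figure D1:**
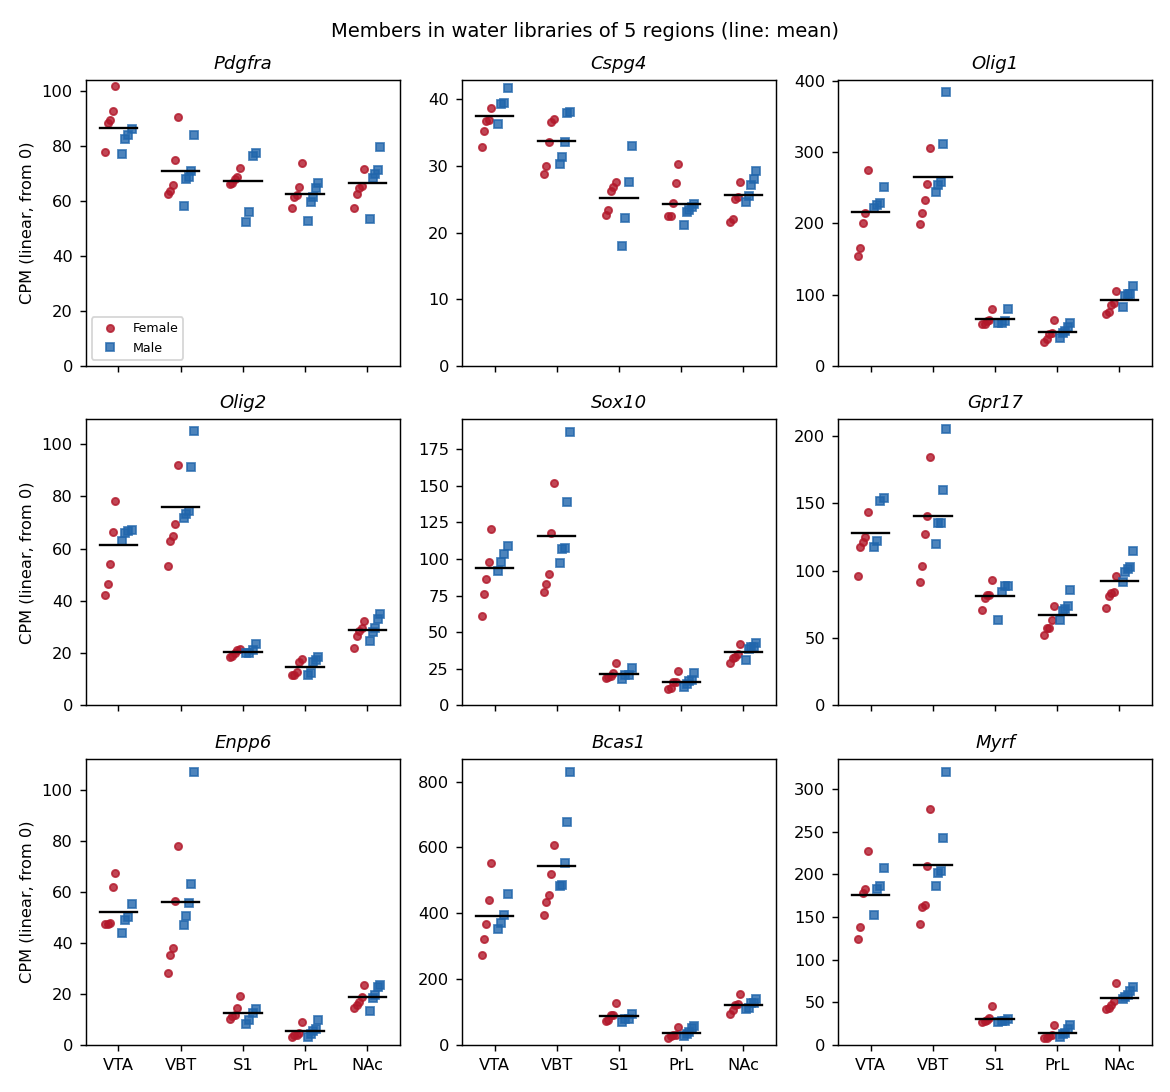
CPM of each gene in each water library (points, y axis) by region (x axis), with a line at the regional mean. Pdgfra and Cspg4 lie at similar heights in the 5 regions, whereas Sox10, Enpp6, Bcas1 and Myrf are high in VTA and VBT and lowest in PrL.

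Per kilobase of exon, which allows genes to be compared with each other, the mean order also changed with region. In VBT the water means were 144 CPM per kb for Bcas1, 123 for Olig1, 37.9 for Sox10, 30.0 for Olig2, 27.0 for Gpr17, 24.6 for Myrf, 8.72 for Enpp6, 7.06 for Pdgfra and 2.82 for Cspg4. In PrL they were 22.0 for Olig1, 12.9 for Gpr17, 9.94 for Bcas1, 6.23 for Pdgfra, 5.83 for Olig2, 5.28 for Sox10, 2.03 for Cspg4, 1.63 for Myrf and 0.825 for Enpp6. Myrf thus stood above Pdgfra in VBT and below it in PrL, while Gpr17 stood below Bcas1 in VBT and above it in PrL.

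Differences between regions were tested in a fit over the 48 water libraries and 21468 genes. VBT minus PrL, a pair in which 34.4% of all genes were called as higher in VBT at an adjusted p under 0.05, was called and positive for all 9 members. The log2 difference was 0.22 for Pdgfra (SE 0.07, adjusted p = 0.0039), 0.52 for Cspg4 (SE 0.07), 1.11 for Gpr17 (SE 0.09), 2.52 for Olig1 (SE 0.11), 2.40 for Olig2 (SE 0.11) and 2.88 for Sox10 (SE 0.14). It was 3.43 for Enpp6 (SE 0.20), 3.90 for Bcas1 (SE 0.16) and 3.97 for Myrf (SE 0.18, adjusted p = 1.95e-22). The 2 precursor surface genes had the smallest differences, Gpr17 came next, the 3 transcription factors lay above it, and Enpp6, Bcas1 and Myrf were highest.

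The other pairs are given with the share of all genes called in the same direction. VTA was higher for 9 of 9 members than S1 (36.0% of all genes), PrL (35.1%) and NAc (34.7%). VBT was higher than S1 for 8 of 9 members (34.5%), the exception being Pdgfra, and higher than NAc for 9 of 9 (34.1%). VTA was lower than VBT for 6 of 9 members (25.1%): Olig1, Olig2, Sox10, Gpr17, Bcas1 and Myrf. S1 was higher than PrL for 7 members (18.3%) and lower than NAc for 6 (26.4%), and PrL was lower than NAc for 7 (24.8%).

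The VTA to VBT differences were small, and some lay close to the threshold. The log2 difference was -0.42 for Olig1 (SE 0.11, adjusted p = 0.00077), -0.59 for Bcas1 (SE 0.15) and -0.39 for Myrf (SE 0.16, adjusted p = 0.0432). Myrf lost its call when any of 9 libraries was left out, while its difference stayed between -0.31 and -0.39 (adjusted p from 0.0557 to 0.104), and these were VTA female water 2 and 3, VTA male water 1, 4 and 5, VBT female water 1 and 2, and VBT male water 3 and 4. Gpr17 lost it without VBT female water 2, the library with choroid plexus genes (adjusted p = 0.0645), while Pdgfra became higher in VTA than in VBT without it (adjusted p = 0.0258). With VTA male water 3 kept, Pdgfra and Cspg4 lost every region call (VBT minus PrL of Cspg4 was 0.52 with an adjusted p of 0.199). Pdgfra also became higher in VBT than in S1 without VBT male water 5, S1 male water 4 or S1 male water 5.

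**Figure D2:**
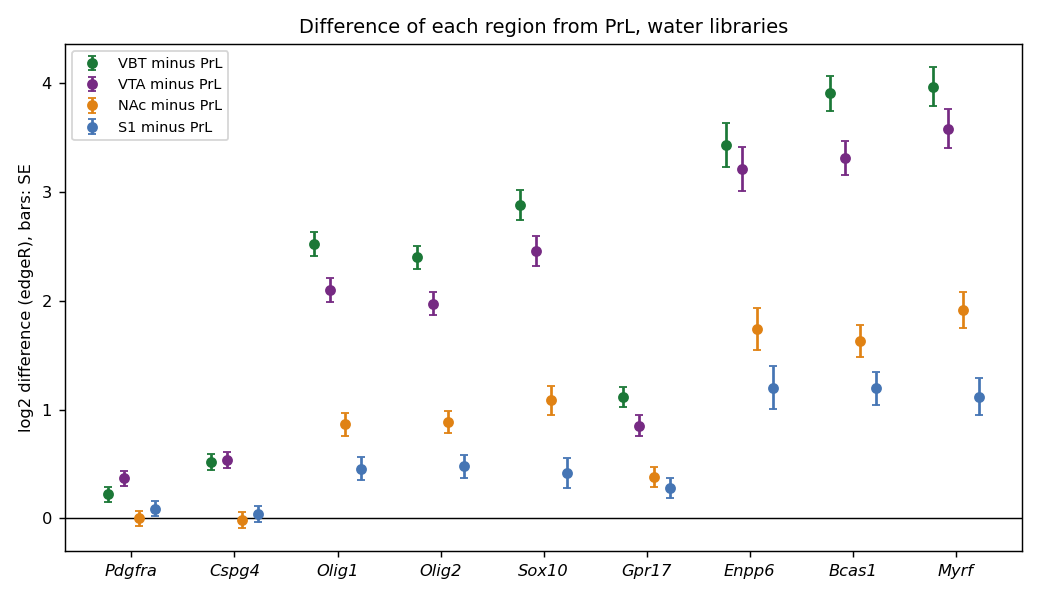
Difference of each region from PrL in water libraries (y axis, log2) for each gene (x axis), with bars of 1 SE. The differences of VTA and VBT grow from the precursor surface genes to Bcas1 and Myrf, where VBT lies 3.90 and 3.97 above PrL.

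The 50 libraries of fentanyl-exposed offspring, which share no library with the water set, gave a second measurement of the regional pattern. VBT minus PrL was 0.15 for Pdgfra, 0.59 for Cspg4, 1.10 for Gpr17, 2.48 for Olig1, 2.36 for Olig2, 2.93 for Sox10, 3.33 for Enpp6, 3.95 for Bcas1 and 3.89 for Myrf on the log2 scale, and all 9 were called (35.8% of all genes were called as higher in VBT). In the fentanyl libraries Pdgfra was higher in VTA than in VBT (0.22, adjusted p = 0.0019) and in VBT than in S1 (0.22, adjusted p = 0.0021). The main edgeR fit of the water libraries called it in neither pair. VTA minus VBT of Cspg4 was -0.24 in fentanyl libraries (adjusted p = 0.0079) and 0.02 in water libraries (adjusted p = 0.863), and whether the sets differ was not tested. VTA minus VBT of Olig1 and Sox10 was -0.75 and -0.74, against -0.42 for each in water. Bcas1 in S1 minus NAc was -0.23 in fentanyl libraries and did not pass the test (adjusted p = 0.218), against -0.43 in water (adjusted p = 0.0132), so 5 members rather than 6 were called for that pair.

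Other genes of the lineage, from lists of 12, placed the members on this gradient. Of the mature myelin genes, 12 of 12 were higher in VBT than in PrL, with a median log2 difference of 4.13 (Opalin, an oligodendrocyte membrane protein, 4.0, and Cnp, a myelin enzyme, 3.73). Their summed water level had medians of 26165 CPM in VBT, 22918 in VTA, 8303 in NAc, 4067 in S1 and 1228 in PrL. Of 12 other genes of newly formed cells, 10 were higher in VBT than in PrL and 1 lower, with a median of 1.60. That list includes Tcf7l2 at 5.62, a gene that thalamic neurons also make, and Cnksr3 at 3.59.

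Other precursor genes were mixed. Of 12, 9 were higher and 3 lower in VBT than in PrL, with a median log2 difference of 0.48 and a range from -1.07 to 2.16, the top being Nkx2-2, a transcription factor that also acts in maturing cells. Nkx2-2 had water means of 11.1 CPM in VBT and 2.54 CPM in PrL, and Neu4, a sialidase, 28.3 and 8.99 CPM. Of 3 ligand genes for Pdgfra and its relatives, none was higher and 2 were lower in VBT than in PrL, Pdgfb by -0.63 and Pdgfc by -0.93. Of 12 regulators of the lineage, 6 were higher and 4 lower, with Lpar1, a lysophosphatidic acid receptor, at 3.15 and Erbb3, a neuregulin receptor, at 3.13. The median over all genes in that pair was close to 0.

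Markers of the other cells that make Pdgfra and Cspg4 also differed by region. Of 6 fibroblast markers, 6 were higher in VTA than in VBT and in NAc, and 5 of 6 were higher in VTA than in S1 and in PrL. Their summed level in water libraries had a median of 173 CPM in VTA (55.5 to 257), against 59.8 in PrL, 59.7 in S1, 49.6 in VBT and 36.6 in NAc. Of 6 pericyte markers, 5 were higher in VTA than in PrL and 6 higher than in NAc, with median sums of 362 CPM in VTA, 356 in S1, 330 in VBT, 255 in NAc and 249 in PrL. No defining marker of either list had a regional mean of 0. Their part in the Pdgfra and Cspg4 levels was not tested.

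The second comparison asked whether the 9 genes differed between fentanyl and water offspring within each region, in females, in males and on average over the sexes. In VTA, 4 members were lower after fentanyl on average: Cspg4, Olig1, Olig2 and Sox10. Among all genes in that contrast 23.1% were called, 12% as lower. In males alone, where 22.0% of all genes were called (11% as lower), Cspg4 and Olig1 were lower, and in females, where 0.0% were called, no member was. In VBT, S1, PrL and NAc edgeR called 0 members in each contrast, with 0 to 3 of 9 at an unadjusted p under 0.05. The DESeq2 Wald test also called 0 there, and limma-voom called 2 as lower in NAc males, with 3.64% of all genes, and 1 as lower in the NAc difference between the sexes, with 3.39% of all genes.

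In VTA males, Olig1 was at 228, 251, 221 and 226 CPM in the 4 water libraries and at 187, 161, 160, 189 and 138 CPM in the 5 fentanyl libraries. The groups did not overlap, and the log2 difference was -0.43 (SE 0.15, adjusted p = 0.0496 by edgeR). Leaving out any of 13 of the 19 VTA libraries ended that call, with differences of -0.36 to -0.46 and adjusted p from 0.0505 to 0.126. These were female fentanyl 1, 2, 3 and 4, female water 1 and 4, male fentanyl 2, 3 and 5, and all 4 male water libraries, the females entering the fit through the shared spread, filter and scaling. Cspg4 was at 39.2, 36.2, 39.5 and 41.7 CPM in water and at 27.8, 37.2, 30.5, 25.2 and 28.7 CPM in fentanyl libraries. Only fentanyl library 2 reached into the water range, and the difference was -0.36 (SE 0.09, adjusted p = 0.0093).

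The other 2 factors did not pass the main edgeR test in males. The DESeq2 Wald test called both as lower (adjusted p = 0.0327 for Sox10 and 0.0408 for Olig2), as did limma-voom (0.0048 and 0.0018). With GC content offsets or with male water 3 kept, edgeR called neither. The counts of all genes called in these fits are given further on. Sox10 was at 103, 109, 91.8 and 98.2 CPM in water and at 79.8, 76.1, 67.3, 77.5 and 60.1 CPM in fentanyl males (log2 -0.44, adjusted p = 0.0618). Olig2 was at 62.9, 67.2, 66.8 and 66.0 CPM in water and at 55.8, 43.9, 45.0, 54.6 and 39.7 CPM in fentanyl males (log2 -0.42, adjusted p = 0.0683). Neither gene's groups overlapped, so 3 of 9 members did not overlap, all lower after fentanyl. Of all genes with a mean of at least 1 CPM, 27.4% did not overlap in this comparison.

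In VTA females the same genes overlapped between the groups. Olig1 was at 201, 155, 166, 215 and 274 CPM in water and at 161, 154, 140, 157 and 196 CPM in fentanyl libraries (log2 -0.34, adjusted p = 0.344). Sox10 was at 86.5, 60.9, 76.1, 97.7 and 121 CPM in water and at 71.0, 61.1, 67.3, 81.3 and 88.4 CPM in fentanyl libraries (log2 -0.28), and Cspg4 differed by -0.16. The water females spread more than the water males, with Olig1 at 202 ± 47.3 CPM (SD, n = 5) against 231 ± 13.5 CPM (SD, n = 4). The difference between the male and the female effect was called for no member and for 0.0% of all genes.

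Averaged over the sexes, the log2 differences were -0.26 for Cspg4 (SE 0.06, adjusted p = 0.0060), -0.39 for Olig1 (SE 0.10, adjusted p = 0.0129), -0.36 for Olig2 (SE 0.11, adjusted p = 0.0236) and -0.36 for Sox10 (SE 0.11, adjusted p = 0.0268). Sox10 lost its call without female fentanyl 2, female water 4 or male water 2 (adjusted p from 0.050 to 0.0555), and Gpr17 gained one without female water 3 (-0.21, adjusted p = 0.0465). The other members were at -0.25 (Myrf), -0.17 (Gpr17), -0.06 (Bcas1), 0.08 (Enpp6) and 0.02 (Pdgfra). Pdgfra, the other precursor surface gene, was at 86.2, 77.2, 82.4 and 83.9 CPM in water males and 76.4, 93.1, 86.3, 66.8 and 89.1 CPM in fentanyl males, which overlapped fully. Enpp6 likewise overlapped, at 50.3, 55.4, 43.9 and 48.8 CPM in water and 55.6, 50.04, 54.9, 57.6 and 42.4 CPM in fentanyl males.

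**Figure D3:**
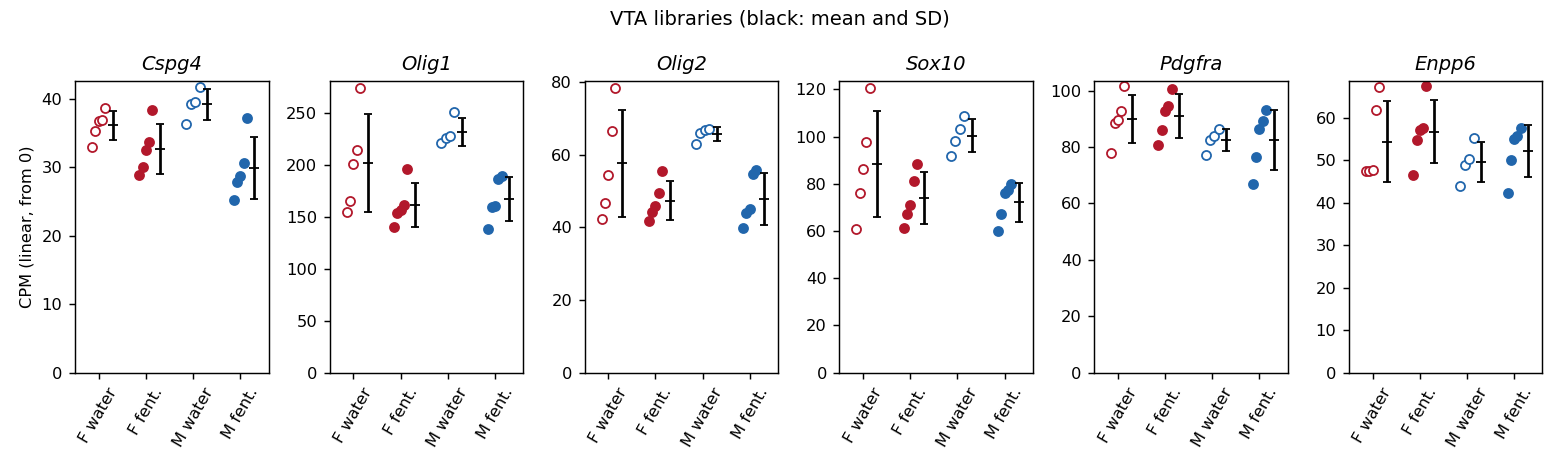
CPM (y axis) in each VTA library of the 4 groups of sex and treatment (x axis) for 6 genes, with mean and SD. In males all fentanyl points of Olig1, Olig2 and Sox10 lie under the water points, while Pdgfra and Enpp6 overlap.

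VTA libraries differed by base composition, and the members differ in their share of G and C. G and C made up 61.8% of the longest transcript of Sox10, 61.0% of Olig1, 59.2% of Cspg4 and 58.5% of Olig2, against 57.6% for Myrf, 53.4% for Gpr17, 50.9% for Bcas1, 48.1% for Pdgfra and 42.3% for Enpp6. The coding stretches printed above show the contrast between Olig1 and Pdgfra. Across 15520 genes, Spearman's rho between a gene's GC content and its level in a library relative to the region was -0.336 ± 0.183 in fentanyl males (SD, n = 5) and 0.583 ± 0.055 in water males (SD, n = 4). An exact permutation test over the libraries gave p = 0.0159, two-sided, the smallest possible for 5 against 4 (0.106 after Benjamini-Hochberg adjustment over 40 such tests). The same libraries also differed by exon length, with rho of 0.119 ± 0.0878 in fentanyl and -0.173 ± 0.0399 in water males (exact permutation p = 0.0159, 0.106 after adjustment), and fentanyl males had fewer genes detected (exact permutation p = 0.0476, 0.202 after adjustment). Olig1, Olig2 and Sox10 are the shortest members, at 2162, 2530 and 3051 bases of exon. With offsets for exon length the same number of members, 4, was called on average, at -0.34 for Cspg4, -0.36 for Olig1, -0.34 for Olig2 and -0.36 for Sox10, with 4405 of 19822 genes. In males 1 was called (Cspg4, -0.48), with 4030 genes.

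In females rho was -0.320 ± 0.207 after fentanyl and 0.062 ± 0.487 in water (SD, 5 libraries each), with an exact two-sided permutation p of 0.190. Water libraries 4 and 5 had rho of 0.656 and 0.528, and the other 3 had -0.323, -0.313 and -0.241. Libraries 4 and 5 also held the highest Olig1, Olig2 and Sox10 of the water females. When the dependence on GC content was removed from each library in the fit, the average differences became -0.02 for Cspg4, -0.09 for Olig1, -0.12 for Olig2 and -0.05 for Sox10. With these offsets edgeR called 0 members in males or on average, 0 had an unadjusted p under 0.05, and 804 of all genes were called in males and 916 on average, against 4355 and 4580 without them. In males rho did not overlap between the groups, so base composition and treatment cannot be told apart there.

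With the library VTA male water 3 kept, edgeR called 0 members and 42 genes in males, and 0 members and 60 genes on average. The average differences were then -0.35 for Olig1 (unadjusted p = 0.0063), -0.33 for Olig2 (0.0250), -0.38 for Sox10 (0.0058) and -0.10 for Cspg4 (0.850). That library held 0 CPM of Pdgfra and of Cspg4, beside 224 CPM of Olig1 and 505 CPM of Bcas1, in a total of 16515545 counts. Without the filter on low counts 2 members and 3584 of 35648 genes were called on average, and 1 member and 3293 genes in males.

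Of the other genes of the lineage in VTA, some were called as higher and some as lower. On average over the sexes, where 23.1% of all genes were called (12% as lower), 2 of 12 other precursor genes were higher and 2 lower. The lower were Matn4, a matrix protein, at -0.30 and Neu4 at -0.26. Of 12 other newly formed genes 1 was higher (Pik3r3, 0.25) and 2 lower, among them Nkx6-2, a homeobox factor, at -0.51. None of the 12 mature myelin genes was called, with a median of -0.04, and their sums overlapped, at 16602 to 27893 CPM in fentanyl males and 21027 to 25809 CPM in water males. The sums of the other newly formed genes did not overlap in males, at 679 to 746 CPM after fentanyl and 770.1 to 823 CPM in water, and overlapped in females, at 674 to 779 and 703 to 875 CPM. Of 3 PDGF ligand genes Pdgfa, the main ligand of Pdgfra, was lower at -0.27. The ligand sums were 54.5 to 69.5 CPM in fentanyl and 70.3 to 77.3 CPM in water males, without overlap. In females they were 56.6 to 68.1 and 61.5 to 73.4 CPM. Of all genes with a mean of at least 1 CPM, 27.4% did not overlap in males. The lists in this paragraph were not examined with GC content offsets. Of 12 lineage regulators Id2, an inhibitor of helix-loop-helix factors, was higher at 0.15. The median over all genes was 0.00. The regulator sums did not overlap in females, at 622 to 664 CPM after fentanyl and 581 to 610 CPM in water. In males they overlapped, at 522 to 638 and 576 to 609 CPM. Of all genes with a mean of at least 1 CPM, 1.78% did not overlap in females.

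Markers of other cells were looked at beside Cspg4 and Pdgfra in VTA. Of 6 pericyte markers, 2 were higher and 1 lower on average, where 23.1% of all genes were called. Among them were Rgs5, a regulator of G protein signalling, at 0.30 and Notch3, a receptor of mural cells, at -0.38. The pericyte sums were 318 to 448 CPM in fentanyl males and 322 to 373 CPM in water males. In females they were 368 to 456 CPM after fentanyl and 319 to 381 CPM in water. None of 6 fibroblast markers was called. Their sums were 48.6 to 267 CPM in fentanyl and 75.4 to 222 CPM in water males, and 94.9 to 245 and 55.5 to 257 CPM in females. Sums of the region and blood lists overlapped between the groups but ran to different extremes. The VTA marker list summed to 335 to 1240 CPM in fentanyl and 864 to 1499 CPM in water males, the VBT list to 214 to 655 and 208 to 458 CPM, and blood genes to 82.6 to 490 and 74.0 to 248 CPM. Blood genes also ran from 105 to 572 CPM in fentanyl and 79.6 to 330 CPM in water females. Their median log2 differences were 0.90 in males and 1.22 in females, with 0 of 5 called by edgeR in either sex. Of all genes 22.0% were called in males and 0.0% in females, so the female count cannot set blood genes apart. The library VTA male fentanyl 4 had both the lowest VTA list (335 CPM) and the highest neuron sum (6052 CPM, against 3811 to 4321 CPM in water males). The part of these lists in the differences of Cspg4, Olig1, Olig2 and Sox10 was not tested.

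**Figure D4:**
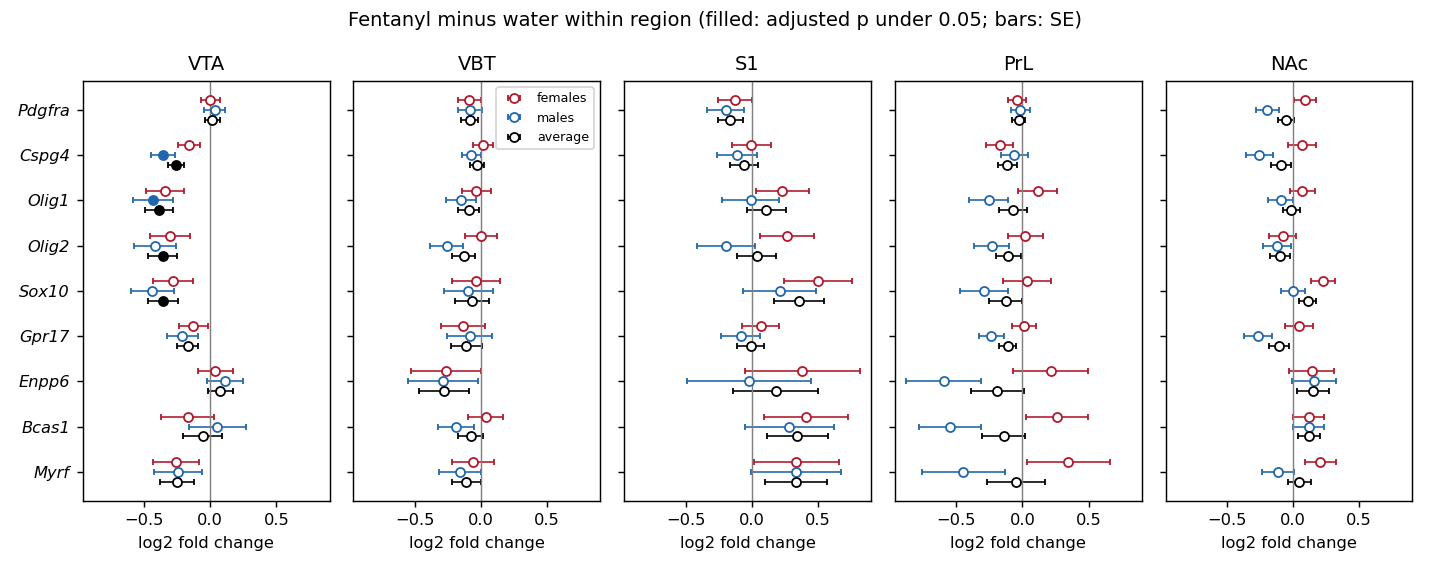
Fentanyl minus water (log2, with bars of 1 SE) for each gene in each region, in females (red), males (blue) and on average over the sexes (black), with filled points at an adjusted p under 0.05. Filled points occur in the VTA panel alone, for Cspg4, Olig1, Olig2 and Sox10, on the negative side.

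In NAc males no member passed the test, and the precursor surface genes came nearest to it together with Gpr17. Cspg4 was at 24.6, 28.0, 27.1, 29.3 and 25.4 CPM in water and at 21.2, 19.6, 18.7, 20.9 and 30.0 CPM in fentanyl libraries (log2 -0.26, SE 0.10, adjusted p = 0.201). Fentanyl library 5 lay above all water libraries and the other 4 below them, and without library 5 the difference was -0.36 and called (adjusted p = 0.0316). Pdgfra differed by -0.19 (unadjusted p = 0.0335) and Gpr17 by -0.26 (unadjusted p = 0.0206, adjusted p = 0.192). In this contrast 0.662% of all genes were called, among them 2 of 12 other precursor genes, both lower: Vcan, a chondroitin sulphate proteoglycan, by -0.57 (adjusted p = 0.0404) and Ptprz1, a receptor phosphatase, by -0.43 (adjusted p = 0.0343). Both also have sources outside the lineage, Ptprz1 in astrocytes. No mature myelin gene was called in NAc males (median 0.12). These libraries also differed by exon length, with rho of -0.204 after fentanyl and 0.130 in water (exact permutation p = 0.0317, 0.181 after adjustment over 40 tests), and Cspg4 and Pdgfra are the longest members, at 11931 and 10024 bases of exon. With offsets for exon length the differences were -0.10 for Cspg4 (unadjusted p = 0.371), -0.06 for Pdgfra (unadjusted p = 0.394) and -0.21 for Gpr17 (unadjusted p = 0.049), by edgeR.

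In PrL males no member and 0.0% of all genes were called, and 3 genes of the committed and newly formed cell had an unadjusted p under 0.05. Bcas1 was at 33.4, 26.1, 51.7, 39.9 and 58.5 CPM in water and at 27.0, 26.6, 27.0, 29.9 and 30.4 CPM in fentanyl libraries (log2 -0.55, unadjusted p = 0.0313). The fentanyl libraries lay close together, within the lower part of the water range. Enpp6 differed by -0.60 (unadjusted p = 0.0497) and Gpr17 by -0.23 (unadjusted p = 0.0186). The mature myelin genes had a median of -0.45, with 0 of 12 called. Water library 3, with olfactory bulb genes, held the highest Enpp6 of its group, 9.67 CPM, beside 3.14 to 6.18 CPM in the others. The share of reads outside exons also differed in PrL, at 11.8% after fentanyl and 13.7% in water in males (exact permutation p = 0.0159, two-sided) and 10.97% and 13.3% in females (exact permutation p = 0.0079, the smallest possible), both at 0.106 after adjustment over 40 tests. With that share as a covariate the male values were -0.68 for Bcas1 (unadjusted p = 0.0595), -0.37 for Enpp6 (unadjusted p = 0.396) and -0.34 for Gpr17 (unadjusted p = 0.0171), and 0 members were called.

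In the remaining contrasts the members differed little or spread widely. In S1 females, with 0.142% of genes called, Sox10 differed by 0.50 (SE 0.26, adjusted p = 0.408), and fentanyl library 5 held 56.3 CPM beside 20.6 to 28.3 CPM in the other 4. That library also had the highest mature myelin sum of S1, 15197 CPM. The S1 females differed by GC content too, with rho of 0.166 after fentanyl and -0.230 in water (exact permutation p = 0.0159). They also differed by exon length, with -0.172 and 0.157 (exact permutation p = 0.0079), both at 0.106 after adjustment over the 40 tests. With offsets for either measure edgeR again did not call Sox10 in S1 females. The part of these measures in its value was not tested further. On average over the sexes, 1.03% of genes were called in S1, 0.697% in PrL and 0.0% in VBT and NAc, with no member among them, and the difference between the sexes in the effect was called for 0.0% of genes in each region. In VBT, with 0.0% of genes called in either sex, the median member difference was -0.04 in females and -0.15 in males. In NAc females (0.0% called) it was 0.09, and in PrL females (0.021%) 0.03. Between water males and water females edgeR called no member in any region, with 0.0898% of genes called in VBT, 0.0557% in S1, 0.0513% in NAc, 0.0504% in VTA and 0.0472% in PrL. Before adjustment, p was under 0.05 for Olig1, Olig2 and Bcas1 in VBT, at positive male minus female values (0.26, 0.27 and 0.32), and Gpr17 in PrL (0.27) and NAc (0.25).

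Within regions, the members followed the myelin content of the single punch to different degrees. For each member the deviation of log2(CPM + 1) from its group mean was set against that of the summed mature myelin genes, over 19 or 20 libraries per region, in 45 relations with 100000 permutations each. The values share each library's depth and scaling. Bcas1 followed the myelin sum closely, with Pearson's r of 0.986 in S1, 0.956 in PrL, 0.954 in both VTA and VBT and 0.809 in NAc (Spearman's rho 0.953 in S1, 0.892 in PrL, 0.912 in VTA, 0.938 in VBT and 0.758 in NAc). For r the adjusted permutation p was 2.05e-05 in each region, where 1e-05 is the smallest raw p these permutations can give. Without the 2 libraries farthest from the median, r of Bcas1 was 0.697 to 0.971.

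Myrf (r from 0.722 in NAc to 0.971 in S1), Enpp6 (0.745 in NAc to 0.961 in VBT) and Sox10 (0.582 in NAc to 0.961 in VBT) behaved alike, with rho of 0.726 and 0.942, 0.821 and 0.902, and 0.495 and 0.899. Olig1 ran from 0.594 in NAc to 0.956 in VBT (rho 0.568 and 0.911), and Olig2 from 0.660 to 0.928 (rho 0.588 and 0.851). Without 2 libraries the NAc value of Olig1 became 0.469. The largest adjusted permutation p of r among these 5 genes was 0.00884, for Sox10 in NAc. Gpr17 followed the myelin sum in VBT (r 0.876, rho 0.811) and S1 (0.778, rho 0.675) but not in VTA (0.045, rho 0.091, permutation p = 0.854). In PrL its r fell from 0.552 (rho 0.603) to 0.349 without 2 libraries, PrL female fentanyl 1 and PrL female water 5, and in NAc from 0.463 (rho 0.475) to 0.362, where the libraries left out were NAc female fentanyl 5 and NAc female water 5. No p was computed without them.

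Pdgfra changed sign between regions. In VTA it was lower in punches with more myelin RNA, with r of -0.746 (adjusted permutation p = 0.0003), rho of -0.679 (adjusted permutation p = 0.00271) and r of -0.713 without female water 1 and 5. In VBT it was higher in such punches, with r of 0.821 (adjusted permutation p = 3.46e-05), rho of 0.753 and r of 0.648 without male water 3 and female water 2. In S1 r of 0.588 (rho 0.560) became 0.348 without female fentanyl 5 and male fentanyl 2. In PrL (-0.168, rho -0.149) and NAc (0.320, rho 0.304) no relation was found. Cspg4 was related to myelin in VBT (r 0.786, rho 0.786), and its r of 0.534 in S1 (rho 0.574) became 0.385 without the same 2 libraries. In VTA (0.081, rho 0.153), PrL (-0.298, rho -0.265) and NAc (0.118, rho 0.170) Cspg4 showed none. Whether the regions differ in these relations was not tested.

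**Figure D5:**
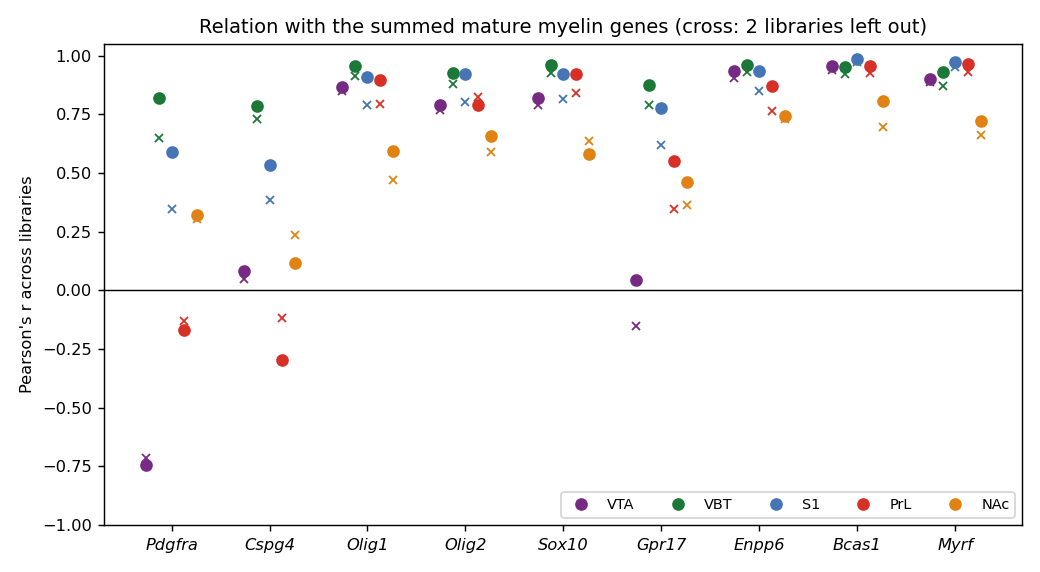
Pearson's r (y axis) between each gene and the summed mature myelin genes across libraries of a region, after removal of group means, by region (points) and without the 2 libraries farthest from the median (crosses). Bcas1 runs from 0.809 to 0.986, and Pdgfra runs from -0.746 in VTA to 0.821 in VBT.

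Across all 98 libraries, with group means removed, the genes most like each member in log2(CPM + 1) followed its role. The values describe likeness over genes with a mean of at least 1 CPM, and libraries share depth and composition. Myrf was closest to Mbp (r 0.962) and Fa2h (0.962), which make myelin protein and myelin lipid, and to Trf, transferrin (0.954). Bcas1 was closest to Trf (0.953), Mbp (0.953) and Plekhb1 (0.944), and Enpp6 was close to Prr5l (0.902) and Ttyh2 (0.896). Olig1 was close to Sox10 (0.935) and Cmtm5 (0.911). Sox10 was closest to Phldb1 (0.943), Olig1 (0.935) and Gna12 (0.929), and Olig2 to Olig1 (0.904), Unc5b (0.881) and Sox10 (0.880).

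The 3 remaining members had looser neighbours. Gpr17 was closest to Tns3 (0.777), a focal adhesion protein, Zfp488 (0.752), a zinc finger factor of the lineage, and Map4k4 (0.744). Pdgfra was closest to Rftn2 (0.686), Hpgds (0.681) and Afdn (0.672), and Cspg4 was close to Notch1 (0.706) and Caskin2 (0.698). Between members r was 0.909 for Bcas1 and Myrf, 0.648 for Pdgfra and Cspg4, and 0.188 for Pdgfra and Bcas1.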

How the data were processed

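For each library the authors deposited 1 table of read counts by Ensembl gene, not normalized. HTSeq and GRCm38 are named in the submitters' processing notes, while the aligner, annotation release and strand setting are not given in the sources used here. Per the labels, RNA was purified with Trizol and a column kit with DNase. Reads not assigned to a gene were left out of totals, with 9.99% to 18.0% outside exons and 1.50% to 2.23% ambiguous.

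Symbols, positions, exon lengths and sequences came from GENCODE M21. CPM values were scaled to the counts assigned to genes. Groups follow the labels. Each region was fitted with edgeR 4.0.16 in R 4.3.3 (TMM scaling, filterByExpr, robust quasi-likelihood test) with contrasts for females, males, their average, their difference and sex in water. Region pairs were fitted over the water libraries and, apart, over the fentanyl libraries. Benjamini-Hochberg adjustment ran over all genes tested, and a gene is called at an adjusted p under 0.05. The scripts were tested on simulated data. Log2 differences use TMM scaling, so they depart from CPM ratios between regions: in water libraries Pdgfra in VTA minus VBT was 0.14 at means of 86.6 and 70.8 CPM, and Cspg4 in S1 minus NAc was 0.06 at means of 25.3 and 25.6 CPM.

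All 9 members are named, with the 3 genes most like each by Pearson's r and up to 2 genes per list with the smallest p, except a few genes that are not reported here. The members and lists were chosen with earlier results of these data known. Alternatives were size factors or the Wald test from DESeq2 1.42.0, voom with sample weights (limma 3.58.1), other filters, a replicate block, offsets for GC content and exon length, the share outside exons as covariate, 1 sex alone, the excluded library kept, and each library left out. Tables and figures used Python 3.11.15, numpy 2.4.6, pandas 2.3.3, scipy 1.17.1 and matplotlib 3.10.9.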

Additional observations from a re-analysis of the deposited data

Results flagged for a closer look

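A library stood apart from the other 4 of its group in 18 of 180 comparisons of a member in a group, by the gap to the nearest library relative to the range of the group, and chance gives about 9 (1 in 20). They came from 9 libraries. S1 female fentanyl 5, with the highest mature myelin sum of S1, was high for Olig1 (126 CPM, next 76.9), Olig2 (41.4, next 23.1), Sox10 (56.3, next 28.3) and Bcas1 (244, next 116). NAc male fentanyl 5 was high for Pdgfra (65.7 CPM, next 58.3), Cspg4 (30.0, next 21.2), Olig1 (114, next 88.5) and Olig2 (35.0, next 26.3). PrL female water 5, which carried olfactory bulb genes, was high for Enpp6 (9.01 CPM, next 4.55), Bcas1 (55.3, next 31.1) and Myrf (23.9, next 11.4).

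S1 male fentanyl 2 was high for Pdgfra (76.8 CPM, next 55.3) and Cspg4 (30.7, next 21.8), the members of the precursor surface. VBT male water 3, which carried striatal genes, was high for Enpp6 (107 CPM, next 63.0), PrL female fentanyl 1 was high for Enpp6 (8.14, next 5.05), and S1 female water 3 was high for Myrf (46.1, next 32.1). Low values were Sox10 in VBT female fentanyl 1 (85.3 CPM, next 102), the library with Y-linked counts, and Pdgfra in PrL male fentanyl 1 (48.8, next 60.5).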

How the results depend on the processing

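In VTA males 2 members and 4355 of 19822 genes were called. The number was 1 with DESeq2 size factors (4394 genes), without a filter on low counts (3293 of 35648), with the replicate block (3855, Olig1 -0.39, adjusted p = 0.0879) and with exon length offsets (4030). It was 3 with a filter at a mean of 50 counts (4668 of 14775, Sox10 adjusted p = 0.0451), 4 with the DESeq2 Wald test (5038), with limma-voom (6568) and in males fitted alone (4468 of 18909), 5 with the share outside exons as covariate (5527), and 0 with GC content offsets (804) or with male water 3 kept (42). It was 1 to 4 when 1 library was left out. On average over the sexes 4 members and 4580 genes were called in VTA, 5 members with the share outside exons as covariate (5817 genes, Myrf -0.35, adjusted p = 0.0148), 2 without the filter (3584), 0 with GC content offsets (916) and 0 with male water 3 kept (60), and 3 to 5 when 1 library was left out.

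With limma-voom 2 members were called in VTA water males against females (Olig1 0.36, Olig2 0.38, with 2810 of 19822 genes called), 2 in NAc males (Cspg4 -0.37, Gpr17 -0.41, with 1573 of 19480 genes) and 1 in the NAc difference between the sexes (Cspg4 -0.46, with 1310 genes), where the main test called 0. Leaving out 1 library gave 0 to 1 in NAc males. In females fitted alone, 2 members rather than 6 were called for VTA minus VBT and for S1 minus NAc, with fewer samples. Cspg4 in VTA minus VBT was -0.24 in fentanyl libraries. Without VBT female water 2, PrL female water 5 and PrL male water 3, VTA minus VBT was 0.18 and called for Pdgfra (adjusted p = 0.0268) and was not for Gpr17 (-0.19, adjusted p = 0.0612) and Myrf (-0.31, adjusted p = 0.0546). The causes were not tested. Of 4898 alternative values of called region differences, 4853 kept direction and call.

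Same-numbered libraries of a region deviated together, with a correlation over 0.1, in 38 of 144 pairs. Between regions this held in 35 of 92 water and 35 of 100 fentanyl pairs. Libraries of different numbers were not compared, so these counts cannot decide whether the numbers pair the samples. The main fits did not take them to do so. The labels do not say whether punches of different regions share an animal. The replicate block changed no other count of members called.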

Other observations

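Genes of dividing cells and neuroblasts, which border the lineage in the forebrain, had their own regional pattern. The summed level of 6 genes of dividing cells had medians of 36.3 CPM in NAc water libraries, against 6.25 in VTA, 6.79 in VBT, 4.86 in S1 and 3.74 in PrL. Mki67, a marker of cycling cells, had means of 11.4 CPM in NAc and 1.03 to 2.46 CPM elsewhere, and Top2a, a topoisomerase of dividing cells, 12.9 CPM in NAc and 0.915 to 2.89 CPM elsewhere. Genes of neuroblasts and the subventricular zone summed to a median of 234 CPM in NAc, 129 in S1, 113 in PrL, 59.0 in VTA and 51.7 in VBT. Igfbpl1, a gene of migrating neuroblasts, was at 9.30 CPM in NAc and 0.132 to 1.99 CPM elsewhere. Pdgfra and Cspg4 showed no rise in NAc.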
